A study of Mus musculus with 21 samples.

Results

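The 9 genes described here, of the T-cell surface and of T-cell receptor signaling, were measured in lymphoid progenitors (LPs): the CD3 chains *Cd3d*, *Cd3e* and *Cd3g*, the surface glycoproteins *Thy1* and *Cd5*, the kinases *Lck*, *Fyn* and *Zap70*, and the adaptor *Lat*. They were chosen by symbol, as 9 of the 55421 genes of a QuantSeq 3′ mRNA-seq table, together with every Zbtb1 or Cbfa2t3 ChIP-seq peak whose nearest gene was 1 of the 9. These peaks numbered 8 of 5898 for Zbtb1 and 11 of 6077 for Cbfa2t3. The cells were an *Ebf1*-deficient LP line of C57BL6/J origin, kept on OP9 stroma with SCF, IL-7 and Flt3L and without Notch stimulation. For QuantSeq, LPs carrying Cas9-GFP were given guides with an hNGFR marker and doubly marked cells were sorted several days later. The control guides targeted luciferase (sgControl), and the others targeted the gene in their name (sgLmo2, sgZbtb1, sgCbfa2t2 and sgCbfa2t3), giving 3 libraries per condition and 15 in all. Per the study's methods, 2 guides per target were pooled. The ChIP-seq peaks came from 2 replicates per factor in LPs that received no sgRNA. All groups therefore share the *Ebf1* deficiency, a single line and the stroma, and all QuantSeq groups share Cas9.

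In T cells the CD3 chains couple the antigen receptor to signaling. Engaged receptor is phosphorylated by the Src-family kinases Lck and Fyn, Zap70 docks on the phosphorylated chains, and Zap70 then phosphorylates Lat, on which downstream enzymes assemble. Thy1 and CD5 are surface proteins classically used to mark T cells, and CD5 dampens receptor signaling. Several of these genes, *Thy1*, *Lck* and *Fyn* among them, are also expressed outside mature T cells, including in progenitors and innate lymphoid cells.

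The libraries held 1705416 to 2095447 reads, so that 3 reads correspond to 1.43 to 1.76 TPM. TPM is the authors' name for the deposited values, which are CPM (read counts scaled to the library total and not to gene length), so a higher value in 1 gene than in another is a larger share of reads and not a level per length. *Zbtb1* mRNA was higher, not lower, under its own sgRNA (106 ± 9.91 against 61.7 ± 5.51 TPM in sgControl, SD, n = 3, limma adjusted p = 0.00102), as was *Cbfa2t3* (350 ± 12.9 against 190 ± 18.7 TPM, limma adjusted p = 1.67e-07). *Cbfa2t2* was at 21.9 TPM in sgCbfa2t2 against 11.8 TPM (limma adjusted p = 0.412, libraries apart) and *Lmo2* at 16.3 TPM in sgLmo2 against 18.4 TPM (limma adjusted p = 0.956). Conditions are therefore named by their library labels. 3′ reads do not show whether a frame is disrupted. *Ebf1* was also counted, at a mean of 217 to 336 TPM per condition, despite the labelled deficiency. All 13 lymphoid progenitor markers examined were above 0 in each condition, and the summed level of 12 stromal markers was 1.96 to 14.2 TPM per library.

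*Thy1* and *Lck* were the genes that moved. Both fell in sgZbtb1 LPs, with level changes of -50.9% and -45.2%, and *Thy1* fell to a smaller extent in sgCbfa2t3 LPs. *Fyn*, *Lat*, *Zap70* and *Cd5* passed the test in none of the 4 comparisons with sgControl, and *Cd3d*, *Cd3e* and *Cd3g* were at or near 0 everywhere. The test was limma on log2(TPM + 1) with Benjamini-Hochberg adjustment over the 11554 genes with a mean above 1 TPM, and a gene was called at an adjusted p under 0.05. Of the 9 genes, 6 entered the test and the 3 CD3 chains did not. In sgZbtb1, 2 of the 6 were called lower and 0 higher, where 2.94% of all tested genes were called lower. In sgCbfa2t3, 1 of 6 was called lower, against 0.407% of all tested genes. In sgCbfa2t2 and sgLmo2, limma called 0 of 6, with 0.147% and 0.0173% of all tested genes called in either direction. edgeR and DESeq2 on reads recovered from the values also called 0 of 6 there, and at an unadjusted p under 0.05 there were 0 of 6 in sgCbfa2t2 (9.56% of all tested genes) and 1 of 6, *Thy1*, in sgLmo2 (5.65% of all tested genes). The 4 comparisons share the sgControl libraries. The study calls the 3 libraries of a condition biological replicates, and all come from the 1 line.

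**Figure D1:**
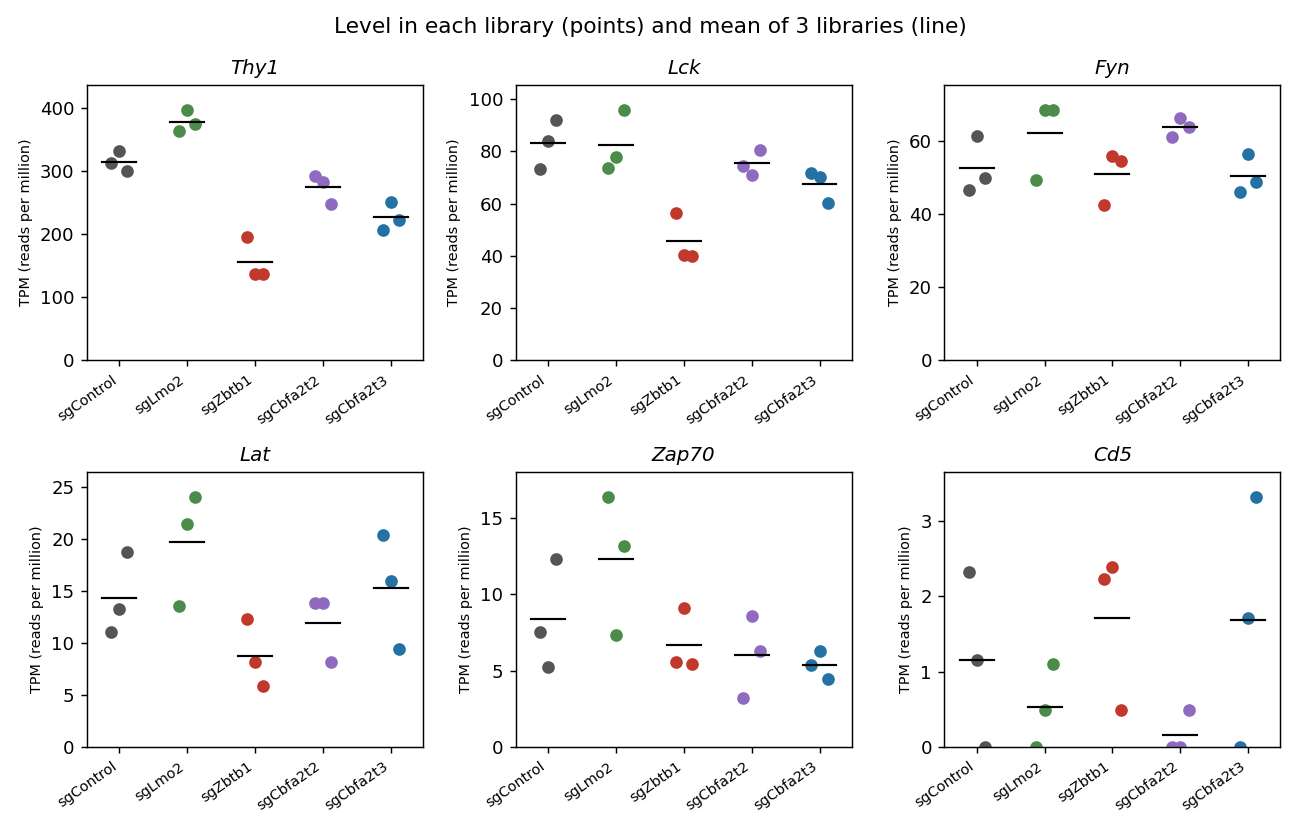
Level of 6 genes (TPM as deposited, y axis from 0) in each of the 15 libraries by condition (x axis); points are libraries and black lines are means of 3. The sgZbtb1 points of *Thy1* (137 to 195 TPM) and *Lck* (39.8 to 56.4 TPM) lie below those of every other condition, while *Fyn*, *Lat*, *Zap70* and *Cd5* overlap sgControl in every condition.

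*Thy1*, on chromosome 9 (mm10 chr9:44043384-44048579, plus strand), encodes a glycosylphosphatidylinositol-anchored protein of the T-cell and progenitor surface. The sgControl libraries held 313, 332 and 300 TPM, and the sgZbtb1 libraries 195, 137 and 137 TPM. The sgCbfa2t3 libraries held 207, 251 and 222 TPM, the sgCbfa2t2 libraries 293, 283 and 248 TPM, and the sgLmo2 libraries 364, 397 and 374 TPM. Each sgZbtb1, sgCbfa2t3 and sgCbfa2t2 library lay below the 3 sgControl libraries, and each sgLmo2 library lay above them. Libraries that separate in this way were found for 12.8%, 9.06% and 6.85% of all tested genes in the lower direction in sgZbtb1, sgCbfa2t3 and sgCbfa2t2, and for 5.62% in the higher direction in sgLmo2.

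*Thy1* fell by 1.03 on the log2(TPM + 1) scale in sgZbtb1 (SE 0.11, 95% interval -1.24 to -0.81, limma adjusted p = 6.49e-11), a level change of -50.9%. It fell by 0.48 in sgCbfa2t3 (SE 0.11, -0.69 to -0.26, limma adjusted p = 0.014), a level change of -28.1%. The sgCbfa2t3 call was lost without sgControl replicate 2 (-0.44, limma adjusted p = 0.113) and without sgCbfa2t3 replicate 1 (-0.41, limma adjusted p = 0.149). In sgCbfa2t2 the difference was -0.20 (-0.41 to 0.01, limma adjusted p = 0.576) and in sgLmo2 it was 0.26 (0.05 to 0.48, limma adjusted p = 0.838), and neither passed. The study's own definition of a differentially expressed gene (unadjusted p below 0.05, a log2 difference beyond 1 either way, and more than 10 TPM on average in either group) was met against sgControl by *Thy1* in sgZbtb1 and by no other of the 6 genes. In that comparison 1.38% of all tested genes met it as lower. The limma p and the log2(TPM + 1) difference stand in here for the study's own calculation. At -1.03 *Thy1* was close to the limit, and the difference was -0.99 without sgControl replicate 2, -0.94 without sgZbtb1 replicate 2 and -0.94 without sgZbtb1 replicate 3, which do not meet it. In bulk RNA, fewer cells with *Thy1* and less *Thy1* mRNA per cell cannot be told apart.

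Compared among the sgRNAs, the *Thy1* level was ordered sgLmo2, sgControl, sgCbfa2t2, sgCbfa2t3 and sgZbtb1, with means of 378, 315, 275, 227 and 156 TPM. Of the 4 pairs of neighbours in this order, sgZbtb1 and sgCbfa2t3 alone differed past the test (-0.55, SE 0.11, limma adjusted p = 0.000651), with libraries that did not overlap. sgZbtb1 was also lower than sgCbfa2t2 (-0.83, limma adjusted p = 7.41e-08) and sgLmo2 (-1.29, limma adjusted p = 9.24e-15). sgCbfa2t3 was lower than sgLmo2 (-0.74, limma adjusted p = 2.51e-06), while sgCbfa2t3 and sgCbfa2t2 overlapped (-0.28, -0.49 to -0.06, limma adjusted p = 0.635). sgCbfa2t2 was lower than sgLmo2 (-0.46, limma adjusted p = 0.0296), a call that was lost without any 1 of 5 of the 6 libraries, all but sgCbfa2t2 replicate 1, with limma adjusted p up to 0.265.

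*Thy1* had 1 peak in each ChIP list, at different places in the gene. The Zbtb1 peak (chr9:44043692-44044062) was annotated to intron 1, centred 493 bp past the start site, and scored 73.6, which was rank 828 of 5898 and the highest of the 8 Zbtb1 peaks. The Cbfa2t3 peak (chr9:44047006-44047384) lay in intron 3, 3811 bp past the start site, and scored 37.2, rank 2550 of 6077. The 2 peaks did not overlap. Their sequences are shown because *Thy1* was the gene called in both sgZbtb1 and sgCbfa2t3. They are reference mm10 bases on the plus strand, and capitals mark TGTGGT (the core of Runx sites), CAGCTG (an E-box), TGGTGGT (the core given for Zbtb7c) or TGGGAA (the core of RBPJ sites) read on either strand.
Thy1 intron 1, Zbtb1 peak, chr9:44043854-44044053: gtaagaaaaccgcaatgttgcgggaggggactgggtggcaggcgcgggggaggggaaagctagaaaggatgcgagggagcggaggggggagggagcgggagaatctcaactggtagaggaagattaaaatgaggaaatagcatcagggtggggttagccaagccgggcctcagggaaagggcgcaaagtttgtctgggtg
Thy1 intron 3, Cbfa2t3 peak, chr9:44047095-44047294: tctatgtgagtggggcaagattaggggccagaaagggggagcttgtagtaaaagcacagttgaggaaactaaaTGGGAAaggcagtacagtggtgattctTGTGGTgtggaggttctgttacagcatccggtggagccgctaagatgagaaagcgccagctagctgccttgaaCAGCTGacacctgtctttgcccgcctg
The intron 1 stretch leaves out exon bases and so is shifted to the right, though it still holds the peak's centre. It is 58.5% G and C and holds none of the 4 marked words. The intron 3 stretch is 52% G and C and holds 1 TGGGAA, 1 TGTGGT and 1 CAGCTG.

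*Cd5* (chr19:10717116-10739002, minus strand), the receptor that dampens antigen receptor signaling, was close to the limit of the data. Its reads were 4, 2 and 0 in sgControl, 0, 1 and 2 in sgLmo2, 4, 5 and 1 in sgZbtb1, 0, 0 and 1 in sgCbfa2t2, and 0, 3 and 6 in sgCbfa2t3. The groups overlapped in each comparison with sgControl. The fitted differences ran from -0.76 in sgCbfa2t2 to 0.40 in sgZbtb1 with an SE of 0.66, and their 95% intervals together reached from -2.07 to 1.71, so that a difference of *Cd5* was not detectable at this depth. The libraries of sgZbtb1 and sgCbfa2t2 did not overlap (1.15, limma adjusted p = 0.48), as for 7.88% of all tested genes in that direction. *Cd5* nevertheless lay nearest to 3 peaks. In intron 8, 17885 bp past the start site, a Zbtb1 peak of score 20.3 (chr19:10720904-10721274) and a Cbfa2t3 peak of score 20.9 (chr19:10720883-10721261) had centres 17 bp apart, and a second Cbfa2t3 peak of score 21.2 (chr19:10738885-10739263) lay at the promoter. All 3 scores were low in their lists, at rank 4265 of 5898 for Zbtb1 and ranks 5892 and 5775 of 6077 for Cbfa2t3. The intron 8 stretch is shown as a site that both factors share.
Cd5 intron 8, shared peak, chr19:10720989-10721188: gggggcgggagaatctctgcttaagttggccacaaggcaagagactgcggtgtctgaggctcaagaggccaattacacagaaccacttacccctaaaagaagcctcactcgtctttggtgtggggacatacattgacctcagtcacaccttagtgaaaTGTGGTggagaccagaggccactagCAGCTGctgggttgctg
It holds 1 TGTGGT and 1 CAGCTG.

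The CD3 chains, *Cd3d* (chr9:44981786-44987339), *Cd3e* (chr9:44998740-45009627) and *Cd3g* (chr9:44969572-44980431), lie next to each other and were almost without reads. *Cd3d* had 9 reads over the 15 libraries, none of them in sgControl and at most 3 in a library, sgZbtb1 replicate 2. *Cd3e* had 1 read, in sgCbfa2t3 replicate 2, and *Cd3g* had 2 reads, in sgControl replicate 1 and sgCbfa2t3 replicate 1. No library exceeded the level of 3 reads, so no fold change is given, and a difference between conditions was not detectable at this depth. Peaks lay at 2 places in the cluster. Both factors had a peak over the 3′ untranslated region of *Cd3d*, at 27.7 for Zbtb1 (chr9:44986471-44986841) and 50.3 for Cbfa2t3 (chr9:44986432-44986810), with centres 35 bp apart. Zbtb1 had a second peak, of score 24.5 (chr9:44998179-44998549), 376 bp beyond the 3′ end of *Cd3e*. No peak of either list was nearest to *Cd3g*. The *Cd3e* stretch is shown because its words cluster.
Cd3e downstream, Zbtb1 peak, chr9:44998264-44998463: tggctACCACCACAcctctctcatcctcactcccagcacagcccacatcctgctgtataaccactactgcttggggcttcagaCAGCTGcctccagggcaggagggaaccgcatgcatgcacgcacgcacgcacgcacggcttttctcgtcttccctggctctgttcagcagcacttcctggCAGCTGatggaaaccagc
The first capitals are TGGTGGT and TGTGGT on the minus strand, which share letters, and 2 CAGCTG words follow.

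*Lck* (chr4:129548344-129573641, minus strand) encodes the Src-family kinase that starts receptor signaling from CD4, CD8 and the CD3 chains. The sgControl libraries held 73.2, 83.9 and 92.1 TPM, and the sgZbtb1 libraries 56.4, 40.2 and 39.8 TPM. The sgCbfa2t3 libraries held 71.8, 70.2 and 60.4 TPM, the sgCbfa2t2 libraries 74.5, 71.1 and 80.7 TPM, and the sgLmo2 libraries 73.5, 77.7 and 95.9 TPM. The sgZbtb1 libraries were the lowest 3 of the 15, and the sgCbfa2t3 libraries also lay below all of sgControl. *Lck* fell by 0.87 in sgZbtb1 (SE 0.16, 95% interval -1.18 to -0.55, limma adjusted p = 0.000116), a level change of -45.2%. With each of the 6 libraries left out in turn the fall ran from -1.03 to -0.78, with limma adjusted p up to 0.00462. In sgCbfa2t3 the difference was -0.29 (-0.61 to 0.02, limma adjusted p = 0.515), in sgCbfa2t2 -0.13 (-0.45 to 0.18) and in sgLmo2 -0.01 (-0.33 to 0.30).

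Between sgRNAs, *Lck* was lower in sgZbtb1 than in sgLmo2 (-0.85, SE 0.16, limma adjusted p = 0.000131) and sgCbfa2t2 (-0.74, limma adjusted p = 0.00218). Against sgCbfa2t3 it was lower by a margin at the threshold (-0.57, -0.89 to -0.26, limma adjusted p = 0.0494). That last call was lost in edgeR (adjusted p = 0.0718), in DESeq2 (adjusted p = 0.0853) and without any 1 of 4 libraries, sgZbtb1 replicates 2 and 3 and sgCbfa2t3 replicates 1 and 2 (differences of -0.54 to -0.49, limma adjusted p up to 0.262).

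Over the 6 tested genes, sgZbtb1 had 3 called lower against sgLmo2 (*Thy1*, *Lck* and *Lat*), 2 against sgCbfa2t2 and 2 against sgCbfa2t3 (*Thy1* and *Lck* in both), where 3.22%, 1.62% and 0.822% of all tested genes were called lower. sgCbfa2t3 and sgCbfa2t2 each had 1, *Thy1*, called lower against sgLmo2, where 0.519% and 0.147% were. Between sgCbfa2t3 and sgCbfa2t2, limma, edgeR and DESeq2 each called 0 of 6, with 0.0779% of all tested genes called by limma, and 1 of 6, *Thy1*, had an unadjusted p under 0.05 (6.2% of all tested genes). Libraries lay apart in the lower direction for 3 of the 6 genes in sgZbtb1 against sgLmo2 (12.7% of all tested genes), for 3 against sgCbfa2t2, *Fyn* being the third (10%), and for 2 against sgCbfa2t3 (7.62%). They did so for 3 of 6 in sgCbfa2t3 against sgLmo2, *Thy1*, *Lck* and *Zap70* (8.49%), for 1 against sgCbfa2t2, *Fyn* (5.73%), and for 1 in sgCbfa2t2 against sgLmo2, *Thy1* (6.26%). These comparisons share libraries with each other.

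*Lck* had a Cbfa2t3 peak of score 40.6 (chr4:129575229-129575607), 1777 bp upstream of the start site and at rank 2248 of 6077. No Zbtb1 peak had *Lck* as its nearest gene or lay within 50 kb of it. The Cbfa2t3 stretch is shown as the 1 site assigned to *Lck*.
Lck upstream, Cbfa2t3 peak, chr4:129575318-129575517: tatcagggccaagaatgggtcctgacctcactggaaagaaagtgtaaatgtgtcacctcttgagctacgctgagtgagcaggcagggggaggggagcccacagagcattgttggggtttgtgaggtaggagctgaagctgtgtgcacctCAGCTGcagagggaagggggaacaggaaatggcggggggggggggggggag
It holds 1 CAGCTG and 4 GGAA words, the core of ETS sites, on either strand.

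**Figure D2:**
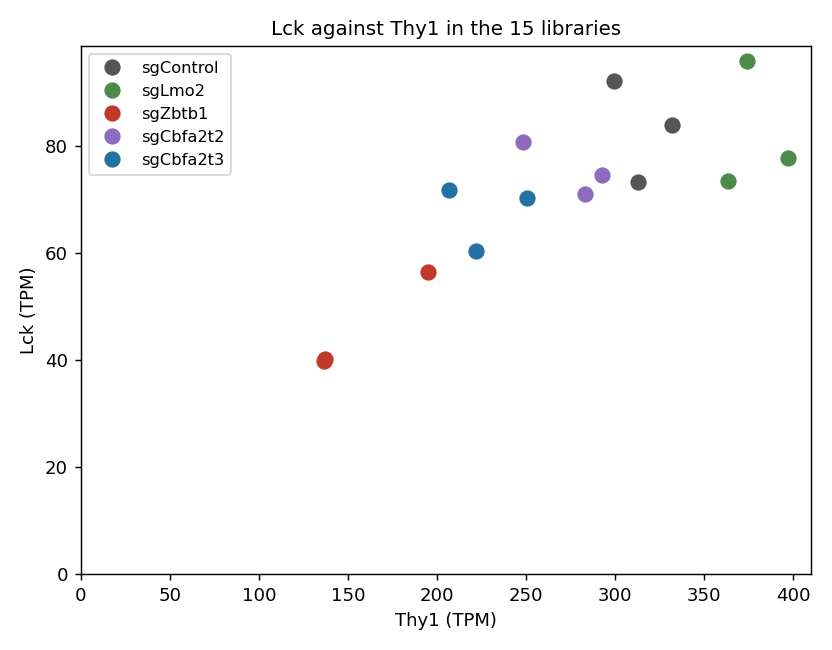
*Lck* (y axis, TPM) against *Thy1* (x axis, TPM) in the 15 libraries, one point per library, coloured by condition. The 3 sgZbtb1 points lie apart at the lower left (39.8 to 56.4 TPM of *Lck*, 137 to 195 TPM of *Thy1*), and the *Lck* of sgCbfa2t3 (60.4 to 71.8 TPM) lies below that of sgControl (73.2 to 92.1 TPM) and sgLmo2 (73.5 to 95.9 TPM).

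*Fyn* (chr10:39368855-39565381, plus strand), the other Src-family kinase of the receptor, did not follow *Lck*. The sgControl libraries held 46.5, 61.4 and 49.8 TPM and the sgZbtb1 libraries 42.5, 55.9 and 54.5 TPM. The sgCbfa2t3 libraries held 46.1, 56.5 and 48.7 TPM, the sgCbfa2t2 libraries 61.2, 66.3 and 63.8 TPM, and the sgLmo2 libraries 49.2, 68.4 and 68.5 TPM. Every condition overlapped sgControl. The difference was -0.04 in sgZbtb1 (-0.39 to 0.30), an interval that leaves out the *Lck* difference of -0.87 there. It was -0.05 in sgCbfa2t3 (-0.40 to 0.29), 0.28 in sgCbfa2t2 (-0.06 to 0.63) and 0.23 in sgLmo2 (-0.12 to 0.57). An antisense gene, *Gm16365*, overlaps the 3′ end of *Fyn*, and whether reads were counted by strand is not given in the sources used here. *Fyn* was nearest to 2 Zbtb1 peaks, of score 22.6 at the promoter (chr10:39369436-39369806) and 28.7 in intron 2 (chr10:39402464-39402834), and to 3 intergenic Cbfa2t3 peaks of score 44.2 to 45.9 with centres at -58228, -77729 and -89231 bp from the start site. No *Fyn* peak was shared.

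*Zap70* (chr1:36761798-36782818, plus strand), the kinase recruited to phosphorylated receptor chains, was low and variable. The sgControl libraries held 7.55, 5.21 and 12.3 TPM and the sgZbtb1 libraries 5.59, 9.08 and 5.40 TPM. The sgCbfa2t3 libraries held 5.36, 6.28 and 4.43 TPM, the sgCbfa2t2 libraries 3.19, 8.59 and 6.28 TPM, and the sgLmo2 libraries 16.4, 7.33 and 13.1 TPM. These values rest on 6 to 29 reads per library, and every condition overlapped sgControl. The differences from sgControl were -0.24, -0.50, -0.42 and 0.51 in sgZbtb1, sgCbfa2t3, sgCbfa2t2 and sgLmo2, each with an SE of 0.42. sgCbfa2t3 lay below sgLmo2 in all libraries (-1.01, limma adjusted p = 0.376). This met the study's definition of a differentially expressed gene, as did 0.476% of all tested genes in that direction, but not the adjusted test. It no longer met it without sgLmo2 replicate 1 (-0.78), sgLmo2 replicate 3 (-0.93) or sgCbfa2t3 replicate 3 (-0.90). At *Zap70* a weak Zbtb1 peak of score 17.4 (chr1:36766834-36767204) lay 85 bp past the start site of the transcript annotated in the list. The 2 Cbfa2t3 peaks assigned to *Zap70*, of score 161.9 (chr1:36831309-36831687) and 34.0 (chr1:36797515-36797893), lay 48680 and 14886 bp beyond its end, in introns of the neighbouring gene *Tmem131*. The first was at rank 201 of 6077, the highest of the 11 Cbfa2t3 peaks, and it is shown because it carries 2 E-boxes close together.
Zap70 nearest gene, Cbfa2t3 peak in a Tmem131 intron, chr1:36831398-36831597: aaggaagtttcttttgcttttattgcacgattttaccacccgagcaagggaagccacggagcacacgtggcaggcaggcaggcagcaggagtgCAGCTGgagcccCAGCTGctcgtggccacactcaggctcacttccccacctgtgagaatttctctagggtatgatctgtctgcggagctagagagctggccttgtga

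*Lat* (chr7:126363824-126369570, minus strand), the adaptor that Zap70 phosphorylates, was measured by 12 to 44 reads per library. The sgControl libraries held 11, 13.3 and 18.8 TPM and the sgZbtb1 libraries 12.3, 8.13 and 5.89 TPM. The sgCbfa2t3 libraries held 20.4, 16 and 9.42 TPM, the sgCbfa2t2 libraries 13.8, 13.8 and 8.21 TPM, and the sgLmo2 libraries 13.6, 21.5 and 24.1 TPM. Every condition overlapped sgControl, and 2 of the 3 sgZbtb1 libraries lay below all of sgControl. The difference was -0.68 in sgZbtb1 (SE 0.34, -1.36 to 0.01, limma adjusted p = 0.297) and 0.05 in sgCbfa2t3, -0.25 in sgCbfa2t2 and 0.42 in sgLmo2. Against sgLmo2, sgZbtb1 was lower without overlap (-1.10, -1.79 to -0.41, limma adjusted p = 0.0456). That call was lost in 7 of 14 alternatives: in DESeq2 (adjusted p = 0.0519), with a pseudocount of 0.1 (limma adjusted p = 0.0504), with no filter on low values (limma adjusted p = 0.142) and without any 1 of 4 libraries, sgZbtb1 replicates 2 and 3 and sgLmo2 replicates 2 and 3 (differences of -1.08 to -0.87, limma adjusted p up to 0.242). *Lat* was 1 of 3 genes, with *Thy1* and *Lck*, called lower in sgZbtb1 than in sgLmo2, and *Thy1* and *Lat* met the study's definition there, where 1.26% of all tested genes did as lower. *Lat* no longer met it without sgLmo2 replicate 3 (-0.94) or sgZbtb1 replicate 3 (-0.87).

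The *Lat* promoter was a peak of both factors, with centres 39 bp apart and very different scores. Cbfa2t3 scored 139.0 there (chr7:126369337-126369715), rank 279 of 6077, and Zbtb1 scored 15.8 (chr7:126369380-126369750), rank 5567 of 5898 and close to the lowest score of that list, 15. The part upstream of the annotated gene is shown, as the promoter with the strongest Cbfa2t3 peak of the 9 genes.
Lat promoter, shared peak, chr7:126369571-126369715: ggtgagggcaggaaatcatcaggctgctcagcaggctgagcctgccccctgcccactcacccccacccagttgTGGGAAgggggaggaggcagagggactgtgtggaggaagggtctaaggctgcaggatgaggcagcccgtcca
It is 64.8% G and C with 1 TGGGAA. The 200 bp at the centre of the Cbfa2t3 peak, which reach into the first exon, held 1 TGTGGT and 2 CAGCTG.

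**Figure D3:**
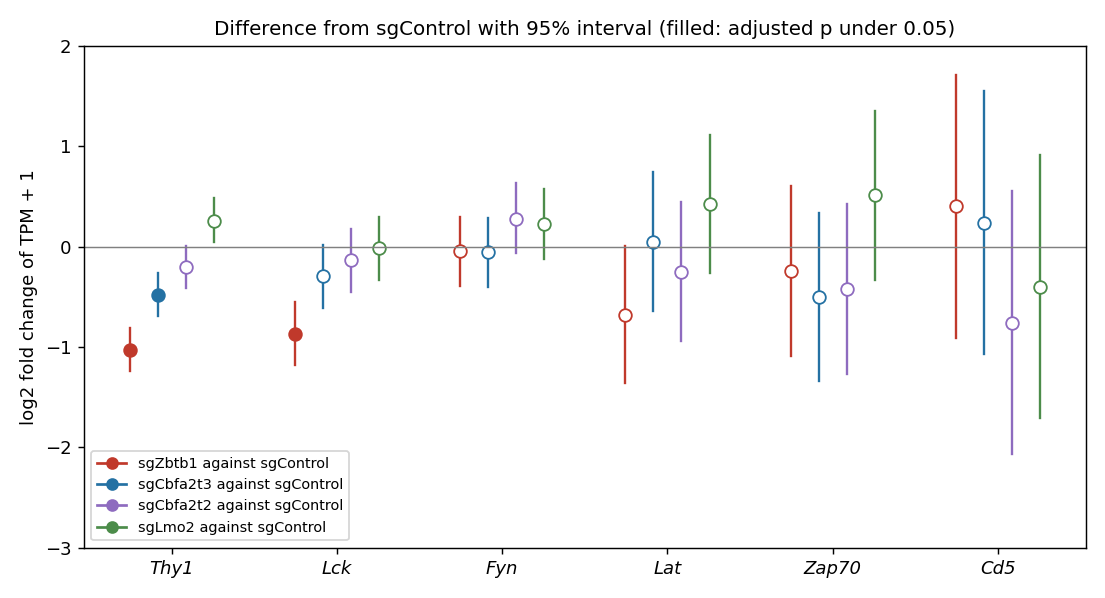
Difference from sgControl (log2 fold change of TPM + 1, y axis) of 6 genes (x axis) for each sgRNA; points are limma estimates, vertical lines are 95% intervals and filled points passed an adjusted p of 0.05. The filled points are *Thy1* in sgZbtb1 (-1.03) and sgCbfa2t3 (-0.48) and *Lck* in sgZbtb1 (-0.87), and the widest intervals are those of *Cd5*.

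Across the 15 libraries, log2(TPM + 1) of *Lck* and *Thy1* had a Pearson r of 0.884, and *Lat* had 0.737 with *Lck* and 0.688 with *Thy1*. *Fyn* had 0.300 with *Lck* and 0.369 with *Thy1*. These values describe 15 libraries that fall into 5 conditions, with sgZbtb1 apart from the rest. Among 8156 genes with a mean above 10 TPM, those most like *Thy1* were *S100a4* (0.974), *Cpne2* (0.952) and *Mgst2* (0.946). Those most like *Lck* were *Sox6* (0.916), *Pik3ip1* (0.908) and *Itpr2* (0.908). For *Lat* they were *Gng2* (0.868), *Dgkz* (0.845) and *Psap* (0.819), and for *Fyn* *D430042O09Rik* (0.838), *Il1r2* (0.836) and *Klhl2* (0.814).

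Among 7 lists of other genes of the pathway, the receptor chains had the highest share of tested genes called lower in sgZbtb1. Of all tested genes 2.94% were called lower and 1.85% higher there, and the lists were not tested for enrichment. Of 6 tested receptor chain genes, 5 were called lower and 0 higher: *Cd247*, the zeta chain, by -2.24 (SE 0.57, limma adjusted p = 0.01), the germline constant regions *Tcrg-C4* (-0.76), *Tcrg-C1* (-0.37) and *Tcrg-C2* (-0.29), and *Trdc* (-0.47). *Tcrg-C1* and *Tcrg-C2* are closely related copies whose reads the counting could split. *Cd247* had 5.28 to 8.13 TPM in sgControl and 0 to 1.47 TPM, at most 3 reads, in sgZbtb1. Its libraries also lay below those of sgControl, without passing the test, in sgLmo2 (1.09 to 4.4 TPM, -0.99), sgCbfa2t2 (0.532 to 3.34 TPM, -1.53) and sgCbfa2t3 (0.553 to 3.75 TPM, -1.54). Of 5 tested co-stimulation and adhesion genes, 1 was called, the adhesion molecule *Cd2* (-2.19, 8.71 to 22.3 TPM in sgControl and 1.68 to 2.46 TPM in sgZbtb1). Among 10 other Src, Syk and Tec kinases, *Txk*, a Tec-family kinase of T cells, fell by 2.30 (44.6 to 48.6 TPM in sgControl and 4.42 to 13.4 TPM in sgZbtb1, limma adjusted p = 3.95e-09) and *Syk*, the relative of *Zap70*, by 0.42 (limma adjusted p = 0.0498, at the threshold). *Fyb* was the 1 of 19 adaptors and exchange factors called (-0.76), *Rasgrp2* (-0.77) and *Prkcb* (-1.74) were the 2 of 15 effectors, and *Ptprc*, encoding CD45, was the 1 of 19 inhibitors and phosphatases (-0.28). *Prkcb* rests on few reads, at 2.93 to 5.81 TPM in sgControl and 0 to 1.47 TPM in sgZbtb1. *Ighm* was the 1 of 3 tested pre-B-cell receptor genes called (-0.72). These lists had 0 members called higher. The genes with the most reads in each list that were not called had differences of -0.03 (*Cd27*), -0.73 (*Cd28*), -0.28 (*Lat2*), 0.19 (*Grb2*), -0.26 (*Skap2*), -0.04 (*Ppp3ca*), -0.29 (*Pik3cd*) and -0.06 (*Nfatc3*). Those of the kinases, inhibitors and pre-B-cell receptor genes were -0.15 (*Lyn*), 0.38 (*Btk*), -0.23 (*Cbl*), 0.02 (*Csk*), 0.57 (*Vpreb1*) and 0.05 (*Blnk*).

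The median difference in sgZbtb1 was -0.46 over the 6 tested genes of the 9, -0.61 over the receptor chains and -1.53 over the 5 tested co-stimulation genes, against -0.03 over all tested genes. Those 5 were *Cd2*, *Cd27*, *Cd28*, *Ctla4* and *Il2ra*, so the list is wider than co-stimulation alone. Its -1.53 is the value of *Il2ra* (0.642 against 3.69 TPM in sgControl, limma adjusted p = 0.123). *Ctla4* was also low (0.159 against 2.72 TPM in sgControl, -1.62, limma adjusted p = 0.0676). The co-receptors *Cd4*, *Cd8a* and *Cd8b1* were too low to be tested. The median difference was -0.17 over the adaptors, -0.13 over the effectors and the other kinases, -0.08 over the inhibitors and 0.05 over the pre-B-cell receptor genes. In sgCbfa2t3, *Txk* (-1.25, 12.3 to 25.7 TPM, limma adjusted p = 0.0112) and *Pik3cd*, a lipid kinase subunit (-0.53, limma adjusted p = 0.00228), were called lower, and the 6 genes had a median of -0.17 against -0.01 for all genes. Of all tested genes 0.407% were called lower in sgCbfa2t3. Over the 7 pathway lists, of 3 to 19 tested genes each, limma called 0 genes in sgCbfa2t2 and sgLmo2, against 0.147% and 0.0173% of all tested genes. At an unadjusted p under 0.05, sgCbfa2t2 had 3 of 6 receptor chains (*Cd247*, *Trdc* at -0.28 and *Trac* at -0.61) and 2 of 5 co-stimulation genes (*Cd28* at -0.83 and *Cd2* at -0.96), against 9.56% of all tested genes, and 0 to 2 genes in each other list. sgLmo2 had 0 to 1 a list, against 5.65%. In sgCbfa2t3, 3 of 6 receptor chains had such a p, *Cd247* and *Trdc* (-0.19) on the lower side and *Tcrg-C1* (0.20) on the higher, against 10.6% of all tested genes. In sgCbfa2t2 and sgLmo2 the 6 genes had medians of -0.22 and 0.25 against 0.00 and 0.01 for all genes.

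**Figure D4:**
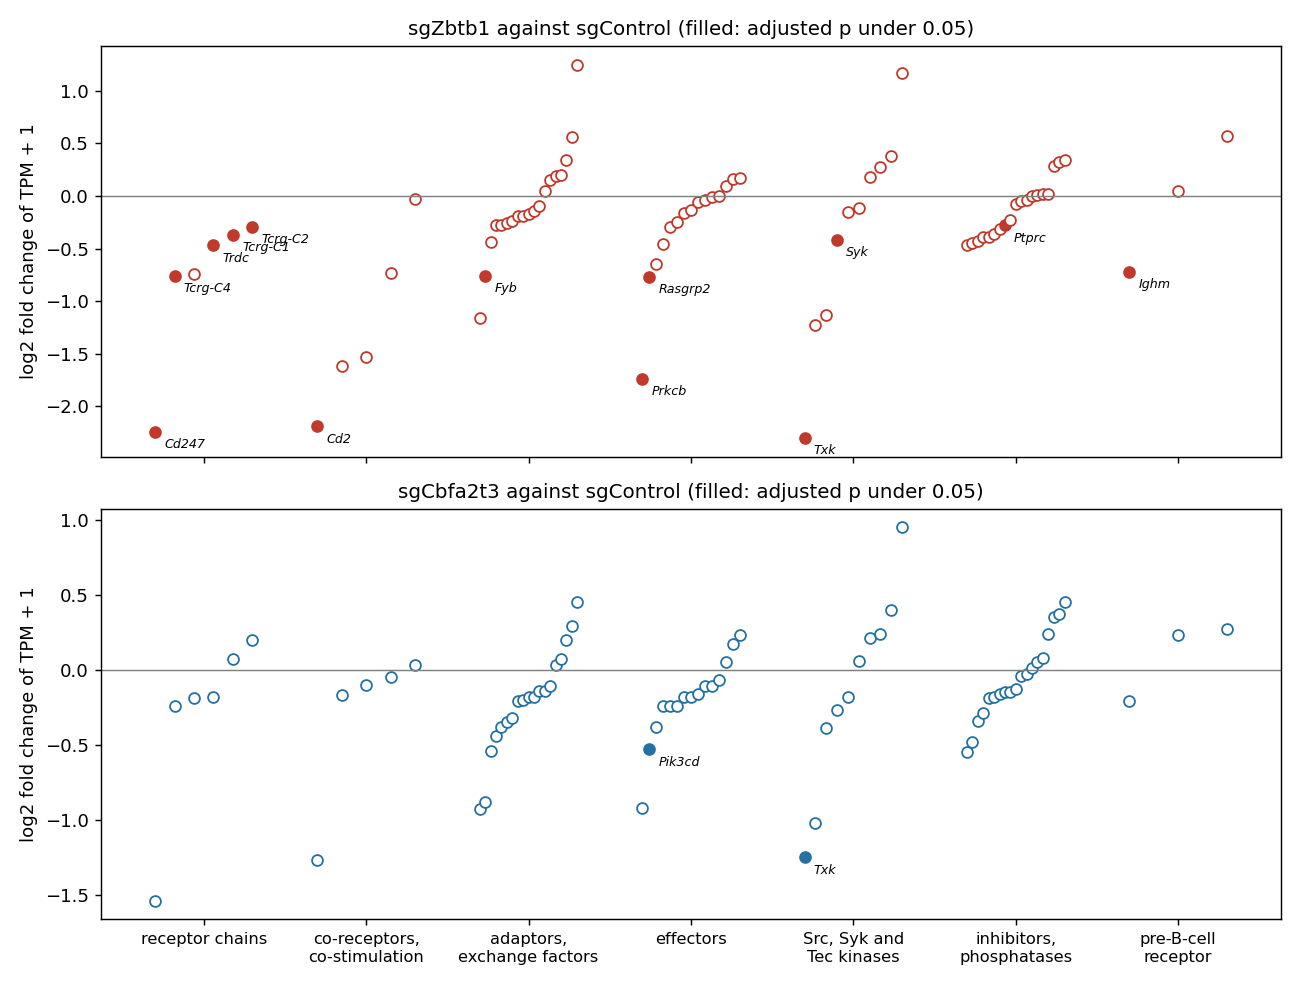
Difference from sgControl (log2 fold change of TPM + 1, y axis) of the tested genes of 7 pathway lists (x axis) in sgZbtb1 (top) and sgCbfa2t3 (bottom), one point per gene, filled and named where the limma adjusted p is under 0.05. In sgZbtb1 the filled points are all below 0 and occur in each list, down to *Txk* at -2.30; in sgCbfa2t3 they are *Txk* (-1.25) and *Pik3cd* (-0.53).

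Markers of several cell types differed in sgZbtb1, where *Thy1* and *Lck* fell. The summed level of 12 thymocyte and T-cell markers outside the 9 genes was 61 to 64.8 TPM in sgControl and 17.2 to 27.9 TPM in sgZbtb1, with 8 and 6 of the 12 above 0, and of the 5 tested *Cd247* and *Bcl11b* (-1.82) were called lower. *Cd8a*, *Cd8b1* and *Ptcra* were at 0 throughout. The sum of 13 NK and innate lymphoid markers was 58 to 89.4 TPM in sgControl and 19.6 to 39.7 TPM in sgZbtb1, with 10 and 8 of the 13 above 0. *Il2rb* (50.2 TPM on average in sgControl and 13.9 TPM in sgZbtb1) took the most reads of the 13 in both conditions, and of the 5 tested it and *Nkg7* (-2.32) were called lower, while *Prf1* (-0.60), *Klrd1* (-0.71) and *Zbtb16* (0.59) were not called. *Nkg7* rests on few reads, at 6.37 to 9.97 TPM in sgControl and 0 to 2.23 TPM in sgZbtb1. The sum of 10 B-cell markers was 311 to 375 TPM in sgControl and 212 to 229 TPM in sgZbtb1, with nearly all of these reads from *Ebf1* (336 and 217 TPM). Of 3 tested, *Ebf1* (-0.62) and *Pax5* (-2.19) were called lower and *Vpreb1* was not called. *Pax5* was low, at 5.21 to 8.21 TPM in sgControl and 0 to 1.47 TPM in sgZbtb1. The sum of 12 myeloid markers was 166 to 246 TPM and 130 to 171 TPM, with *Adgre1* (-1.19) called lower of 6 tested. The other myeloid markers tested were not called, from -0.99 for *Cd68* to 0.66 for *Cebpa*, whose sgZbtb1 libraries lay above those of sgControl. The sum of the 13 progenitor markers was 1574 to 1785 TPM and 1423 to 1528 TPM, with *Ly6d* (-2.40), *Kit* (-1.14) and *Ptprc* called lower and *Cd34* (0.53) called higher. In sgCbfa2t3, where *Thy1* fell, the T-cell and NK sums were 26.8 to 55.4 TPM and 54.8 to 60 TPM, and of the marker lists *Ly6d* (-1.43, limma adjusted p = 6.82e-10) was called lower and the erythroid *Hbb-bt* (0.72, limma adjusted p = 0.00303) higher. The sum of 8 erythroid markers ran from 184 to 277 TPM in sgCbfa2t3, against 114 to 148 TPM for sgControl and 112 to 168 TPM for sgZbtb1. Their part in the changes of *Thy1* and *Lck* was not tested.

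By nearest-gene assignment, 7 of the 9 genes lay nearest to some Zbtb1 peak and 7 to some Cbfa2t3 peak, as did 26.8% and 20.5% of the 11554 tested genes. *Lck* and *Cd3g* had no Zbtb1 peak and *Cd3e* and *Cd3g* no Cbfa2t3 peak, so that 6 genes had both: *Thy1*, *Cd3d*, *Cd5*, *Lat*, *Zap70* and *Fyn*. Of the tested genes 11.3% had both. Genes differ in size and in the distance to their neighbours, so these shares are a description. The counts of the 9 here and below take in the CD3 chains, which are not among the tested genes. Of the tested genes of the 9, all but *Lck* were nearest to a Zbtb1 peak, and all were nearest to a Cbfa2t3 peak. With peaks of score 30 or more, *Thy1* was the 1 gene of 9 left for Zbtb1 and 6 of 9 remained for Cbfa2t3, against 14.3% and 12.8% of tested genes. Within 10 kb of a start site, 5 of 9 genes remained for each factor, against 21.8% and 12.6% of tested genes. Counting any peak inside a gene or within 50 kb gave 8 and 9 of 9 genes, against 60% and 48.2% of tested genes, and gave *Cd3g* peaks of both factors and *Cd3e* a Cbfa2t3 peak. Of the 2 genes called in sgZbtb1, *Thy1* had a Zbtb1 peak and *Lck* had none, and of the 4 tested genes that were not called, all had at least 1.

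Peaks of the 2 lists met at 3 places, the *Cd3d* 3′ end, *Cd5* intron 8 and the *Lat* promoter, which are 3 of 8 Zbtb1 peaks and 3 of 11 Cbfa2t3 peaks. Over the whole lists, 25.2% of Zbtb1 peaks and 24.4% of Cbfa2t3 peaks overlapped a peak of the other. In the central 200 bp, TGTGGT was found in 6 of 8 Zbtb1 peaks (41.3% of all Zbtb1 peaks) and 6 of 11 Cbfa2t3 peaks (43.7% of all). CAGCTG was found in 3 of 8 (15.4% of all) and 8 of 11 (47.4% of all), and TGGTGGT in 2 of 8 (15.8%) and 1 of 11 (6.94%). GGAA was in 7 of 8 (81%) and 10 of 11 (92.5%), and TGGGAA, which contains it, in 1 of 8 (10.2%) and 2 of 11 (13.6%). Both strands were read, TGTGGT and TGGTGGT can share letters, and a word is not shown to be bound.

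**Figure D5:**
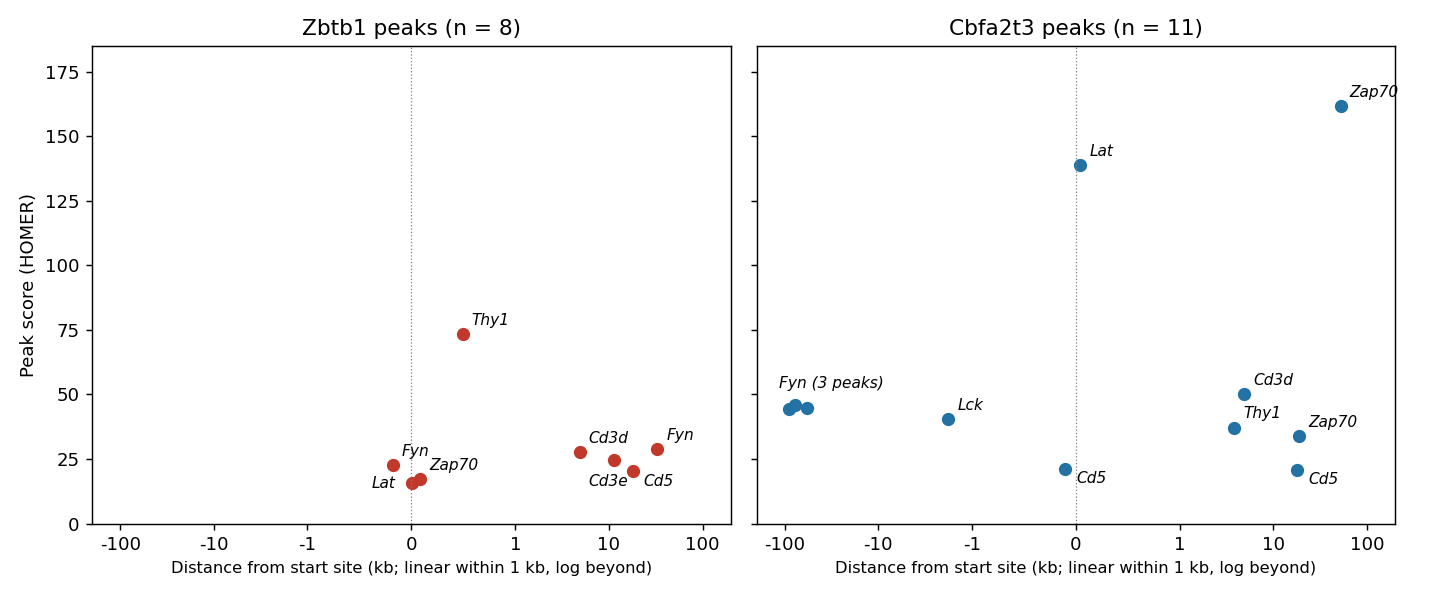
Score (y axis) of the peaks whose nearest gene is one of the 9, against the distance of the peak centre from the annotated start site (x axis, kb, linear within 1 kb and logarithmic beyond), for Zbtb1 (left, 8 peaks) and Cbfa2t3 (right, 11 peaks). *Thy1* is the one Zbtb1 peak above 30 (73.6), and the Cbfa2t3 peaks of *Lat* (139.0) and downstream of *Zap70* (161.9) stand above the rest, which score 50.3 or less.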

How the data were processed

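LP RNA was measured by QuantSeq in 15 libraries and factor binding by ChIP-seq in 2 replicates per factor. Per the labels and the study's methods, the authors trimmed reads with fastp, aligned them to mm10 with STAR and deposited a table of values they name TPM. These deposited values are CPM, since 100% are whole reads within 0.05 read after scaling. The counter and its strand setting are not given in the sources used here. For ChIP-seq the authors used Bowtie 1.1.1, HOMER peaks against input and IDR, and deposited 1 list per factor with a HOMER peak score of at least 15. The lists hold no values per replicate.

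All genes averaging more than 1 TPM were fitted together, over all 15 libraries, with limma 3.58.1 (trend) on log2(TPM + 1) in R 4.3.3, with Benjamini-Hochberg adjustment. edgeR 4.0.16 and DESeq2 1.42.0 were run on the recovered reads as alternatives. An exact permutation test of 3 against 3 cannot go below 0.1. A row that names no gene was dropped (at most 5.86e-05% of a library). The scripts were tested on simulated data. By rule, pathway genes were named where called against sgControl or among the 3 of their list with the most reads, and others as the 3 most alike by Pearson r. Marker, targeted and neighbouring genes were named after their values were seen. Gene models were GENCODE vM21, sequences the mm10 reference, and words were counted over all peaks in the central 200 bp. Printed stretches leave out exon bases and can be shorter than that window or shifted from it. The 9 genes, the lists and the tests were chosen with earlier results of these data known.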

Additional observations from a re-analysis of the deposited data

How the results depend on the processing

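*Thy1* and *Lck* stayed called in sgZbtb1 under all 15 alternatives, from -1.20 to -0.94 and from -1.03 to -0.78 with 1 library left out. Of the 15, 1 took the 9 other gene-targeting libraries as the reference in place of sgControl. Against sgControl, the number of the 6 genes called in sgCbfa2t3 went from 1 to 0 with no filter on low values and to 0 to 1 with 1 library left out. With the 9 other gene-targeting libraries as the reference it was 0, in sgLmo2 it was 1 (*Thy1* higher, 0.83), and *Lck* turned to 0.42 in sgLmo2, 0.26 in sgCbfa2t2 and 0.05 in sgCbfa2t3, and *Thy1* to 0.21 in sgCbfa2t2; that reference holds the sgZbtb1 libraries. In sgZbtb1 against sgCbfa2t3 the number called was 1 in place of 2 with pseudocount 0.1, no filter, median-of-ratios size factors, the 6 libraries alone, edgeR and DESeq2, and 1 to 2 with 1 library left out. In sgCbfa2t2 against sgLmo2 it was 0 with no filter and 0 to 1 with 1 library left out. *Lat* in sgZbtb1 against sgLmo2 stayed called in 7 of 14 alternatives. At a score of at least 30, 1 of the 9 genes had a Zbtb1 peak. Uncalled differences changed sign with 1 library left out: against sgControl, *Lck* in sgLmo2 (-0.13 to 0.06), *Cd5* (-0.08 to 0.79), *Zap70* (-0.50 to 0.05) and *Fyn* (-0.13 to 0.08) in sgZbtb1, and *Cd5* (-0.24 to 0.83), *Lat* (-0.18 to 0.34) and *Fyn* (-0.14 to 0.06) in sgCbfa2t3. Between sgRNAs this held for *Cd5* (-0.43 to 0.62) and *Fyn* (-0.06 to 0.13) in sgZbtb1 against sgCbfa2t3, *Zap70* in sgZbtb1 (-0.15 to 0.44) and sgCbfa2t3 (-0.40 to 0.19) against sgCbfa2t2, and *Fyn* in sgCbfa2t2 against sgLmo2 (-0.10 to 0.13). The causes were not tested. Same-numbered libraries had a mean r of 0.0279 (30 pairs, -0.0072 to 0.0656, 0 above 0.1). Differently numbered ones had -0.0139 (60 pairs, -0.0608 to 0.032). The r of the same number were higher on average but small, and the main fit took no pairing, so a weak shared part of the replicates is not excluded. A replicate block left the number of the 6 genes called at 2, 1, 0 and 0 in sgZbtb1, sgCbfa2t3, sgCbfa2t2 and sgLmo2 against sgControl, while over all genes it moved 554 calls to 709, 62 to 93, 17 to 36 and 2 to 14. DESeq2 results without an adjusted p were left out. Depth limits *Cd5* and the CD3 chains, at 0 to 6 reads per library.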
